A study of Mus musculus with 24 samples.

Results

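The difference between *SOD1* G93A and WT was compared between activated astrocytes and LPS-activated microglia, gene by gene, in 12 of the 24 samples of the series. The members were the 12 libraries labelled as activated cells of either genotype, with 3 libraries in each of 4 groups. In all, 10069 of the 24411 genes in the tables had a mean of at least 10 normalized counts in both the astrocyte table and the microglia table, and these genes were tested. For each gene, the *SOD1* G93A minus WT difference in microglia was subtracted from the *SOD1* G93A minus WT difference in astrocytes, on the scale of log2(normalized count + 1). This interaction is positive where *SOD1* G93A stood higher against WT in astrocytes than in microglia, and negative in the opposite case. It asks whether the genotype differences of the activated glial cell types were unequal, and not whether a difference was present in each.

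The study measured RNA from glia purified from *SOD1* G93A and WT mice and cultured without serum. It asked whether changes that the transgene brings about within glia interact with the reactive response of astrocytes. *SOD1* G93A mice carry a transgene for a mutant human superoxide dismutase and are a model of ALS. Astrocytes were immunopanned from the forebrains of pups, at postnatal day 5 as the methods state for WT, by panning away microglia, endothelial cells and cells of the oligodendrocyte lineage and then selecting with an antibody to HepaCAM. Microglia were isolated from whole brains at postnatal days 7 to 10 with beads against Cd11b. The transgene had been bred into C57BL/6J and other lines, and the strain of these cultures is not given in the sources used here. The activated astrocytes of either genotype had been treated with a mixture of 3 ng/mL of IL-1α, 30 ng/mL of TNFα and 400 ng/mL of C1q. The LPS microglia of either genotype had been treated with 50 ng/mL of lipopolysaccharide (LPS), which comes from the outer wall of bacteria. Cell type therefore could not be told apart from the activating agent, the age at isolation or the isolation method. The transgene is human, and mouse *Sod1* did not mark the genotype. In normalized counts, the unit of all values per library unless another is named, *Sod1* gave 1317, 1221 and 1268 in WT astrocytes, 1215, 1363 and 1462 in *SOD1* G93A astrocytes, 945, 818 and 813 in WT microglia, and 943, 905 and 1042 in *SOD1* G93A microglia. The genotypes overlapped within both cell types, and the interaction was -0.08 (SE 0.13, limma adjusted *p* = 0.821). The genotype thus rests on the labels.

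Interferons are secreted proteins that bind receptors on the cell surface and activate kinases which phosphorylate STAT proteins. Together with IRF9 these form a complex that enters the nucleus, binds a short DNA element in promoters, and switches on a large set of antiviral and antigen presentation genes. Microglia respond to LPS through the receptor TLR4 and commonly enter such an interferon response, whereas IL-1α, TNFα and C1q together convert cultured astrocytes to a neuroinflammatory reactive state.

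The labels of the cell types were checked against 22 microglia markers and 16 astrocyte markers. Summed microglia markers were 334, 557 and 298 CPM (reads per 1000000 reads of the library) in WT astrocytes and 432, 285 and 310 in *SOD1* G93A astrocytes, against 8263, 7517 and 7486 in WT microglia and 8242, 8140 and 10276 in *SOD1* G93A microglia. The astrocyte groups overlapped in this sum. It was led by *Laptm5* in 5 of the 6 astrocyte libraries, and its part in the results was not tested. No microglia marker was at 0 in every astrocyte library, and *Siglech* was at 0 in WT replicate 1 and *SOD1* G93A replicate 3, although the isolation included a step to remove microglia. In bulk samples fewer cells of a type and less RNA per cell cannot be told apart. Summed astrocyte markers, led by *Slc1a3* in astrocytes, were 5845, 5905 and 5920.1 and 5855, 5836 and 5918 in the WT and *SOD1* G93A astrocytes, and 242, 187 and 277 and 218, 275 and 163 in the WT and *SOD1* G93A microglia. Each culture thus carried the markers of its label. The 14 oligodendrocyte lineage markers, led by *Olig1*, summed to 1134, 1169 and 1107 in WT and 1115, 1082 and 1144 in *SOD1* G93A astrocytes, again with overlap.

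Sums over other marker lists separated the genotypes, in part through a single gene. In astrocytes the 12 endothelial markers summed to 138, 152 and 155 CPM in WT and 120.1, 119 and 114 in *SOD1* G93A. Nearly all of this was *Flt1*, and the other 11 markers summed to 3.76, 6.65 and 5.22 in WT and 4.57, 5.09 and 3.75 in *SOD1* G93A, with overlap. *Cldn5*, *Cdh5*, *Ly6c1* and *Tie1* were at 0 in all 6 libraries. The 14 pericyte and fibroblast markers summed to 260.5, 284 and 239.7 in WT and 211, 206 and 199 in *SOD1* G93A astrocytes, or 196, 210 and 174 and 137, 137 and 136 without *Cspg4*, with *Abcc9* at 0 in all of them. The 14 neuron markers, led by *Map2*, were 468, 509 and 511 in WT and 451, 450.5 and 467 in *SOD1* G93A astrocytes, where the groups came within 1 CPM of each other, or 115, 113 and 109 and 90.5, 71 and 68.8 without *Map2*. The pericyte and neuron sums were thus lower in *SOD1* G93A astrocytes with and without these genes, and the oligodendrocyte lineage sum became so without *Olig1*, by less than 1 CPM. The astrocyte markers without *Slc1a3* were also lower there, with 3645, 3676 and 3662 in WT and 3604, 3604 and 3569 in *SOD1* G93A astrocytes.

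In LPS microglia the pericyte and fibroblast markers were 115, 106 and 116 in WT and 149.9, 155 and 239 in *SOD1* G93A, and the oligodendrocyte lineage markers 144, 143 and 145 and 185, 191 and 280. Both rises came from *Cspg4*, which is on both lists. Without it the pericyte and fibroblast sums were 54.2, 38.8 and 47.5 in WT and 38.4, 47.7 and 27.5 in *SOD1* G93A, and those of the oligodendrocyte lineage 82.7, 75.9 and 76.6 and 73.9, 83.8 and 68, overlapping and lowest in *SOD1* G93A replicate 3. *Kcnj8*, *Abcc9* and *Vtn* were at 0 in all 6 libraries. The microglia markers, whose full sums overlapped, were 6352, 5983 and 5938 in WT and 6576, 6496 and 8486 in *SOD1* G93A LPS microglia without *Fcer1g*, higher in *SOD1* G93A and highest in replicate 3. The part of these markers in the results was not tested.

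Depth was uneven. The WT astrocyte libraries held 5047999, 6768201 and 5749391 reads and the *SOD1* G93A astrocyte libraries 3721779, 3929272 and 2135439, so that depth moved with genotype in astrocytes. The microglia libraries held 8121620, 5098168 and 4674300 reads in WT and 5917006, 11570122 and 4042840 in *SOD1* G93A. With every library thinned to 2000000 reads, an alternative chosen after seeing the depths, 18 genes were called for the interaction in place of 17.

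Sex-linked genes also moved with genotype in the astrocytes. *Xist*, the RNA that silences an X chromosome in female cells, gave 2199, 2050.3 and 1818 in WT astrocytes, 5793, 4607 and 3622 in *SOD1* G93A astrocytes, 688, 1017 and 1039 in WT microglia, and 1100.1, 846 and 1129 in *SOD1* G93A microglia. Every *SOD1* G93A astrocyte library was above every WT astrocyte library, and the microglia groups overlapped. Over all genes tested, the genotypes did not overlap in 22.97% of genes in astrocytes and 18.02% in microglia, and every gene described as not overlapping is to be read beside these shares. The astrocyte difference was 1.19 (SE 0.18, limma adjusted *p* = 0.00350) and the interaction 1.01 (SE 0.26, limma adjusted *p* = 0.101). The Y-linked helicase gene *Ddx3y* gave 175, 138 and 157 in WT and 77.4, 78.2 and 67.2 in *SOD1* G93A astrocytes, and 4.38, 2.44 and 6.51 and 3.14, 4.77 and 2.95 in WT and *SOD1* G93A microglia. *Kdm5d*, *Eif2s3y* and *Uty* had the same order in astrocytes, and each was under 10 in every LPS microglia library. Sex-linked RNA moved with cell type too, with *Ddx3y* at 41.8, 33.2 and 36.9 CPM in WT activated astrocytes and 0.739, 0.392 and 1.07 in WT LPS microglia. The part of the sex makeup of the cultures in the astrocyte differences and in the interactions was not tested.

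A pair of microglia libraries stood apart from their groups. The *SOD1* G93A LPS microglia replicate 3 differed more than 2-fold from the mean of the other replicates in 3.86% of the genes tested, and WT LPS microglia replicate 1 in 1.95%, where the other libraries had 0.238% to 1.25%. In *SOD1* G93A replicate 3, 126 of the 129 interferon-stimulated genes tested were below the mean of the other replicates, with a median log2 difference of -0.78. *Rsad2*, an antiviral enzyme gene, was at 8409, 9393 and 2040 in the *SOD1* G93A microglia, and *Nos2*, the inducible nitric oxide synthase, at 2571, 2621 and 287. Both genes were lowest in replicate 3. The counts over all genes tested and some further results are therefore given without this library too. A value includes this library unless the text says otherwise.

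Of the 10069 genes, 17 were called for the interaction, meaning that the adjusted *p*-value was under 0.001 and the interaction was more than 2-fold. Among them, 16 were positive (0.159% of the genes tested) and 1 was negative (0.00993%). All 16 positive genes were higher in *SOD1* G93A astrocytes at an adjusted *p*-value under 0.05 and had an estimate below 0 in microglia, where none passed, and 15 of them were on lists of interferon genes. The other was *Asns*, and the negative one was *Fn1*. At an adjusted *p*-value under 0.05 and any size, 85 genes were positive (0.844%) and 17 negative (0.169%). Of these 102 genes, 94 reached a mean of 10 in every group. Among the 85, 63 were on the interferon lists and 22 were not, and none of the 17 negative genes was on these lists.

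**Figure D1:**
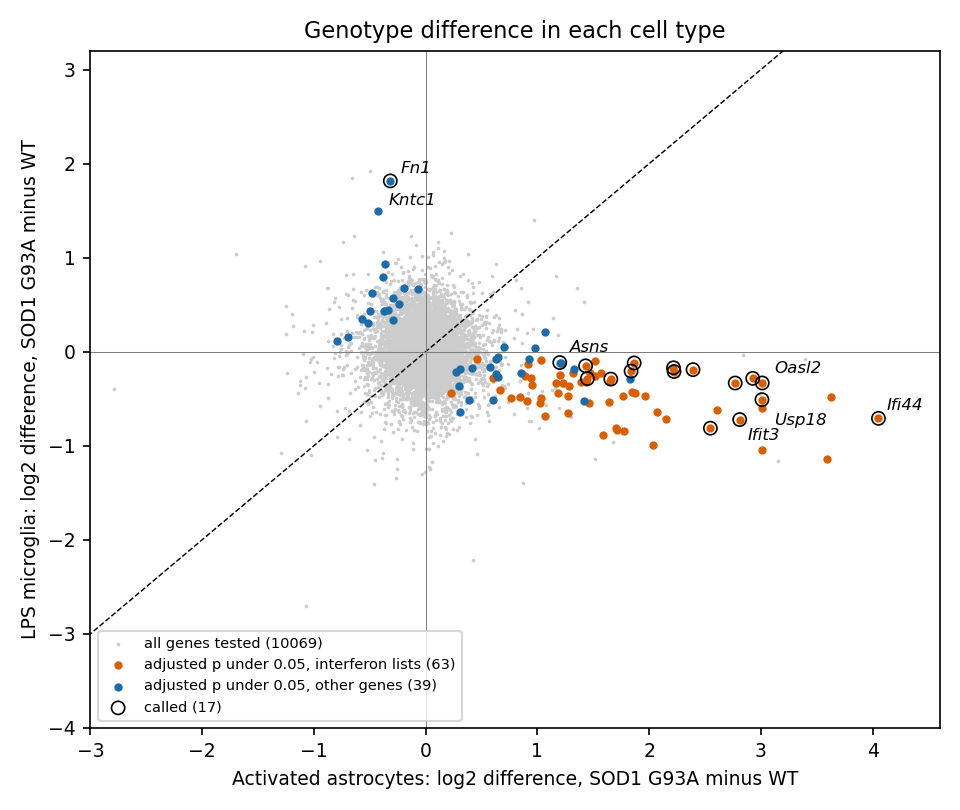
Difference between *SOD1* G93A and WT in activated astrocytes (horizontal axis, log2) against the difference in LPS microglia (vertical axis, log2) for the genes tested, 1 of which lies outside the axes. The dashed line marks equal differences, colours mark genes at an adjusted *p*-value under 0.05 for the interaction, and rings mark the 17 called genes, which other than *Fn1* lie to the right and below 0 in microglia.

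Without *SOD1* G93A LPS microglia replicate 3 the count of called genes was 31 (30 positive and 1 negative) and included the same 17. At an adjusted *p*-value under 0.05 it left 107 positive and 25 negative genes, which included 97 of the 102. Leaving out both microglia libraries that stood apart, chosen after seeing the data, gave 43 genes, again with the same 17. With any 1 other library left out the count was between 9 and 17. It was 9 without WT astrocyte replicate 1, WT microglia replicate 2 or WT microglia replicate 3, and 10 without *SOD1* G93A astrocyte replicate 2 or 3. *Oasl2*, *Rtp4*, *Usp18* and *Xaf1* were called in all 12 fits with a library left out, and so were *Asns*, *Irf9*, *Trim30a* and *Trim30d*. *Trim25* was called in 8 of the 12, *Ifi44*, *Irgm1*, *Samd9l* and *Trim34a* in 4, and *Fn1*, *Ifit3* and *Lgals3bp* in 3.

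Within each cell type, 32 genes were called for the genotype difference in astrocytes, all of them higher in *SOD1* G93A (0.318%), and 29 of these were interferon-stimulated genes. At an adjusted *p*-value under 0.05, 104 were higher (1.03%) and 12 lower (0.119%) in *SOD1* G93A astrocytes. The count of 32 was 58 without *SOD1* G93A LPS microglia replicate 3, 17 without WT astrocyte replicate 1, and 16 without WT astrocyte replicate 3 or *SOD1* G93A astrocyte replicate 1 or 3. In microglia limma called 0 genes, with 1547 at an unadjusted *p*-value under 0.05, while edgeR called *Fn1* and DESeq2 called *Fn1* and *Cspg4*. All groups shared a single estimate of the spread, although the median residual SD (log2) was 0.119 in astrocytes and 0.193 in microglia. With cell type weights limma had 920 genes under 0.05 (unadjusted) in microglia in place of 1547. In astrocytes it had 1696 in place of 942. Without *SOD1* G93A LPS microglia replicate 3 limma called *Fn1* too. At an adjusted *p*-value under 0.05, 4 genes differed in microglia (0.0397%), namely *Fn1*, *Nrxn2* and *Cyfip2*, which were higher in *SOD1* G93A, and *Kdm3a*, which was lower. Without that library *Cyfip2* did not pass in microglia (limma adjusted *p* = 0.0868) and *Cspg4* did (limma adjusted *p* = 0.0286). Thus 0 genes were called in both cell types. For the average of both differences, 4 genes were called (0.0397%), namely *Oasl2*, *Trim30d*, *Rtp4* and *Trim30a*, all of them also called for the interaction. This count was 12 without *SOD1* G93A LPS microglia replicate 3, 1 without WT astrocyte replicate 3 or *SOD1* G93A astrocyte replicate 1 or 2, and 0 without any 1 of the others, with 1225 genes at an unadjusted *p*-value under 0.05 in the full set.

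Within the interferon pathway, no interaction passed for the receptor chains. *Ifnb1*, which encodes interferon beta, was at 0 in all 6 astrocyte libraries and at 0, 0 and 1.30 in WT and 0, 1.59 and 1.47 in *SOD1* G93A microglia, too few to compare at this depth. *Ifnar1*, a receptor chain, gave 1086, 1127 and 1174 in WT astrocytes, 1094, 1196 and 1173 in *SOD1* G93A astrocytes, 1615, 1657 and 1612 in WT microglia, and 1541, 1524 and 1618 in *SOD1* G93A microglia. The groups overlapped within both cell types, and the interaction was 0.09 (SE 0.10, limma adjusted *p* = 0.727). For *Ifnar2*, the other chain, the interaction was -0.02 (SE 0.13, limma adjusted *p* = 0.967).

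Downstream of the receptors, a DNA-binding factor and a feedback regulator differed. *Irf9*, the DNA-binding partner of the STAT proteins, gave 114, 105 and 104 in WT astrocytes, 315, 268 and 303 in *SOD1* G93A astrocytes, 952, 993 and 929.8 in WT microglia, and 849, 884 and 646 in *SOD1* G93A microglia. In astrocytes all *SOD1* G93A libraries were above WT and in microglia all were below, with an interaction of 1.73 (SE 0.16, limma adjusted *p* = 8.05e-05). *Usp18*, a protease that removes ISG15 from proteins and restrains signalling at the receptor, gave 27.4, 18.5 and 19.2 in WT astrocytes, 199, 163 and 177 in *SOD1* G93A astrocytes, 3325, 3056 and 2724 in WT microglia, and 2629, 2594 and 1405 in *SOD1* G93A microglia. The order of genotypes was again opposite in the cell types, without overlap, and *SOD1* G93A LPS microglia replicate 3 was the lowest microglia library. Its interaction was 3.52 (SE 0.30, limma adjusted *p* = 5.34e-05), and without that library 3.22 (limma adjusted *p* = 4.58e-06, with adjusted *p*-values from 9.96e-22 to 0.000772 over all alternatives). *Stat2* passed an adjusted *p*-value of 0.05 and not the limits for a call, with 1.57 (SE 0.33, limma adjusted *p* = 0.0392), and so did *Irf7*, an amplifier of interferon production, with 1.75 (SE 0.38, limma adjusted *p* = 0.0463). Of the 25 interferon signalling genes 22 were tested, 3 were called and 5 passed an adjusted *p*-value of 0.05, all 5 of them positive. The list's median interaction was -0.000816, beside -0.01 over all genes tested, and 17 of its members did not pass.

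Among the targets of the pathway was the gene with the largest positive interaction of all genes tested. *Ifi44* (chr3:151730922-151749960, coordinates of GRCm38), an interferon-induced gene of unsettled function, gave 11.6, 10.5 and 17 in WT astrocytes, 312, 222 and 169 in *SOD1* G93A astrocytes, 271, 354 and 239.6 in WT microglia, and 259.8, 248 and 81.1 in *SOD1* G93A microglia. All *SOD1* G93A astrocytes were far above all WT astrocytes, the microglia groups overlapped, and *SOD1* G93A LPS microglia replicate 3 was the lowest microglia library. Because the tables of the cell types were normalized separately, only the differences within a table are compared here. The difference in astrocytes was 4.05 (SE 0.37), that in microglia -0.71 (SE 0.37, limma adjusted *p* = 0.378), and the interaction 4.76 (SE 0.52, limma adjusted *p* = 0.000379). Without the library that stood apart the interaction was 4.22 (limma adjusted *p* = 1.87e-05, with adjusted *p*-values from 1.63e-10 to 0.00269 over all alternatives). The microglia difference of *Ifi44* was then -0.16 (limma adjusted *p* = 0.889).

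*Ifit3*, whose product belongs to a family that binds foreign RNA, gave 42.4, 59.1 and 61.4 in WT astrocytes, 459.8, 323 and 375 in *SOD1* G93A astrocytes, 7272, 6544 and 5502 in WT microglia, and 5152, 5280.4 and 2145 in *SOD1* G93A microglia. The order of the astrocyte groups was the reverse of that of the microglia groups, and neither pair overlapped. The interaction was 3.53 (SE 0.39, limma adjusted *p* = 0.000396). *Oasl2*, a relative of the oligoadenylate synthetases that sense double-stranded RNA, gave 63.1, 56.6 and 73.2 in WT astrocytes, 701, 426 and 478 in *SOD1* G93A astrocytes, 5088, 4977 and 4679 in WT microglia, and 4308, 4353 and 3163 in *SOD1* G93A microglia. All *SOD1* G93A libraries were above WT in astrocytes and below WT in microglia. *Oasl2* had the smallest adjusted *p*-value of the 10069 genes, with an interaction of 3.34 (SE 0.24, limma adjusted *p* = 2.32e-05). *Xaf1*, an interferon-induced gene linked to cell death, gave 83.1, 70.8 and 102 in WT astrocytes, 589, 427 and 491 in *SOD1* G93A astrocytes, 3695, 3835 and 3499 in WT microglia, and 2493, 2468 and 1483 in *SOD1* G93A microglia. Both cell types separated by genotype, in opposite directions, and the interaction was 3.36 (SE 0.26, limma adjusted *p* = 3.91e-05), although the microglia difference on its own did not pass (-0.81, limma adjusted *p* = 0.119).

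*Rtp4*, a chaperone of cell surface receptors that is induced by interferon, gave 48.2, 49.2 and 55.4 in WT astrocytes, 485, 294 and 307 in *SOD1* G93A astrocytes, 2475, 2140 and 1828 in WT microglia, and 1937, 1873 and 1334 in *SOD1* G93A microglia, with an interaction of 3.10 (SE 0.26, limma adjusted *p* = 5.34e-05). *Samd9l*, a restriction factor for some viruses, gave 17.4, 16.6 and 14 in WT astrocytes, 112, 74.9 and 81.4 in *SOD1* G93A astrocytes, 920.3, 1366 and 1206 in WT microglia, and 1209, 1152 and 731 in *SOD1* G93A microglia, with an interaction of 2.58 (SE 0.29, limma adjusted *p* = 0.000396). In both genes the *SOD1* G93A astrocytes were above the WT astrocytes without overlap, whereas the microglia groups overlapped. Of 33 genes tested with a name made of Trim and a number, a set put together after the called genes were seen, 4 were called (12.1%, against 0.169% of all genes tested). The median interaction of the 28 not on the interferon list was 0.01. *Trim30d* gave 14.1, 17.9 and 15.5 in WT astrocytes, 177, 110.1 and 104 in *SOD1* G93A astrocytes, 1052, 1324 and 1185 in WT microglia, and 1177, 1082 and 718 in *SOD1* G93A microglia, with separate astrocyte groups, overlapping microglia groups and an interaction of 3.21 (SE 0.29, limma adjusted *p* = 8.05e-05). For *Trim34a*, *Trim30a* and *Trim25* the interactions were 2.43, 2.39 and 2.04 (SE 0.27, 0.23 and 0.21). *Trim25* lies on chromosome 11, while *Trim30a*, *Trim30d* and *Trim34a* lie within a cluster on chromosome 7, together with *Trim12a* and *Trim12c*, which were not on the lists. Near-identical members of such a cluster can exchange reads in counting, and their separate values are uncertain, as are those of *Ifit3* beside *Ifit3b*. *Lgals3bp*, a secreted glycoprotein, gave 204, 221 and 206 in WT astrocytes, 724, 471 and 539.5 in *SOD1* G93A astrocytes, 12824, 12932 and 11632 in WT microglia, and 12187, 11946 and 9686 in *SOD1* G93A microglia, with the same arrangement of groups and an interaction of 1.58 (SE 0.19, limma adjusted *p* = 0.000681).

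Of the 182 interferon-stimulated genes listed, 175 were in the tables and 129 were tested. Of those not tested, 44 had a mean under 10 in the astrocyte table and 10 in the microglia table, some of them in both. Of the 129 tested, 15 were called and 63 passed an adjusted *p*-value of 0.05, all in the positive direction, and 66 did not pass. Over all genes tested, 0.159% were called and 0.844% passed in that direction. The counts of every gene list are to be read beside these shares. The median difference of the 129 was 0.93 in astrocytes and -0.39 in microglia, beside 0.00 and 0.01 over all genes tested, and their median interaction was 1.32. Since 14 of the 129 reached a mean of 10 in some groups and not in others, the 115 that reached it in every group are given too, and their median interaction was 1.22, with 57 at an adjusted *p*-value under 0.05. Without *SOD1* G93A LPS microglia replicate 3 the median in microglia was -0.12 and the median interaction 1.07. In that fit 29 of the 129 were called and 68 passed an adjusted *p*-value of 0.05. The median in astrocytes does not draw on that library.

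The summed level of the list was 4001, 4183 and 3955 CPM in WT and 8382, 6719.6 and 6864 in *SOD1* G93A activated astrocytes, and 76179, 73776 and 68591 in WT and 65766, 67618 and 40571 in *SOD1* G93A LPS microglia. Every microglia library was above every astrocyte library, all *SOD1* G93A astrocytes were above WT astrocytes, and all *SOD1* G93A microglia were below WT microglia, replicate 3 by the most. The tables were normalized separately, and CPM were computed from the recovered reads of each library. For the listed genes tested, the median ratio of WT microglia to WT astrocytes was 22.4, beside 0.652 over all genes tested. Quiescent astrocytes, given without a test, had 1939.8, 2219 and 2324 in WT and 2592, 2648 and 2292 in *SOD1* G93A, and WT quiescent microglia had 13556, 14033 and 13714.

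**Figure D2:**
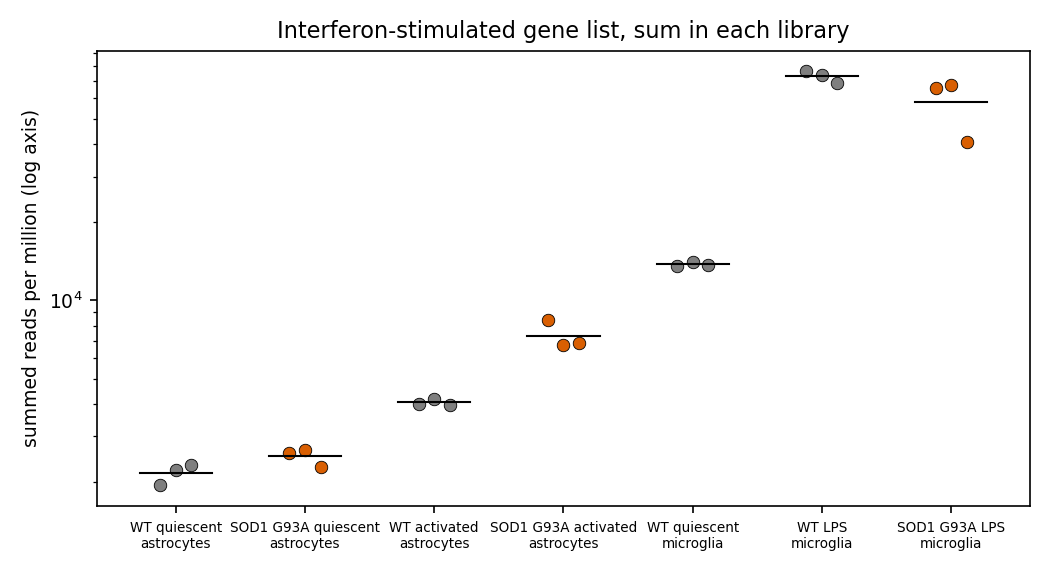
Summed CPM of the interferon-stimulated gene list in each library (points, log axis) with the mean of each group (lines), for astrocytes and microglia by genotype and state, 3 libraries a group. *SOD1* G93A activated astrocytes lie above WT activated astrocytes, and 1 *SOD1* G93A LPS microglia library lies below the other LPS microglia.

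Of the guanylate-binding proteins and immunity-related GTPases, which attack vacuoles of intracellular microbes, 12 of 18 were tested, 1 was called and 7 passed an adjusted *p*-value of 0.05, all positive, with a median of 2.06. Over all genes tested, 0.159% were called and 0.844% passed in this direction. Without *SOD1* G93A LPS microglia replicate 3, 6 of the list were called and 9 passed, with a median of 1.76. Of the 12, 3 did not reach a mean of 10 in every group, and the median of the other 9 was 1.95. The called member, *Irgm1*, gave 87.2, 100.3 and 90.2 in WT astrocytes, 317, 291 and 275 in *SOD1* G93A astrocytes, 1491, 1646 and 1399 in WT microglia, and 1448, 1421 and 909 in *SOD1* G93A microglia. The astrocyte groups did not overlap, the microglia groups did, and the interaction was 1.95 (SE 0.21, limma adjusted *p* = 0.000347). *Gbp3* gave 214, 214 and 261 in WT astrocytes, 826, 697 and 721 in *SOD1* G93A astrocytes, 3096, 3491 and 2788 in WT microglia, and 2434, 2782 and 829.9 in *SOD1* G93A microglia, with an interaction of 2.51 (SE 0.45, limma adjusted *p* = 0.0151). Its genotypes were in opposite order in the cell types, without overlap, and the interaction was called without *SOD1* G93A LPS microglia replicate 3, with 1.96 (limma adjusted *p* = 2.41e-05, with adjusted *p*-values from 9.81e-06 to 0.0562 over all alternatives). Of 18 sensors of nucleic acids 13 were tested, none was called and 7 passed an adjusted *p*-value of 0.05, or 6 of the 12 that reached a mean of 10 in every group. *Ddx58*, which encodes the RNA sensor RIG-I, gave 152, 135 and 171 in WT astrocytes, 524, 353 and 381 in *SOD1* G93A astrocytes, 2522, 3112 and 2886 in WT microglia, and 2620.4, 2686 and 1663 in *SOD1* G93A microglia, with an interaction of 1.75 (SE 0.26, limma adjusted *p* = 0.00350). All *SOD1* G93A astrocytes were above the WT astrocytes, and the microglia overlapped.

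Of 20 genes of antigen presentation through MHC class I, 18 were tested, none was called and 8 passed an adjusted *p*-value of 0.05. All 8 were positive, beside 0.844% of all genes tested, and the list's median was 0.89. *B2m*, the invariant chain of MHC class I, gave 1148, 1294 and 1093 in WT astrocytes, 2414, 1994 and 2246 in *SOD1* G93A astrocytes, 44784, 41270.1 and 38798 in WT microglia, and 40835, 40843 and 33039 in *SOD1* G93A microglia. The astrocyte groups did not overlap, the microglia groups did, with *SOD1* G93A replicate 3 lowest, and the interaction was 1.04 (SE 0.15, limma adjusted *p* = 0.00333). Of the chemokines, 14 of 25 were tested and 1 passed an adjusted *p*-value of 0.05. This was *Cxcl10*, an interferon-inducible attractant of T cells, with 464, 487 and 518 in WT astrocytes, 1869, 1548 and 1417 in *SOD1* G93A astrocytes, 8123, 7477 and 5884 in WT microglia, and 5225, 5665 and 2158 in *SOD1* G93A microglia and an interaction of 2.54 (SE 0.38, limma adjusted *p* = 0.00378). Every *SOD1* G93A microglia library was below every WT microglia library, and the opposite held in astrocytes. For *Ccl2*, an attractant of monocytes, the interaction was 0.44 (SE 0.20, limma adjusted *p* = 0.375). Without *SOD1* G93A LPS microglia replicate 3 the *Ccl2* interaction was 0.26 (limma adjusted *p* = 0.528). *Cxcl10* was then called, with 2.09 (limma adjusted *p* = 3.21e-05).

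The promoters of these genes were searched for the core of the interferon response element bound by the STAT and IRF9 complex, because the genes moved together. Of the 17 called genes 13 had a promoter sequence in RefSeq (15 promoters, GRCm38.p6, 250 bases before to 50 after the start). The letters GAAANNGAA stood on either strand in 9 of the 15 (60.0%), and in 8.56% of all 32851 promoters and 7.06% of the promoters of the genes tested. For the positive genes on the interferon lists at an adjusted *p*-value under 0.05 it was 32 of 63 promoters of 49 genes (50.8%). It was 3 of 18 promoters of 15 genes (16.7%) for the positive genes outside the lists and 3 of 14 promoters of 12 genes (21.4%) for the negative genes. Among genes with a mean of at least 10 in every group these were 31 of 59 (52.5%), 3 of 17 (17.6%) and 3 of 13 (23.1%). Genes with several promoters, such as *Trim30a* and *Inf2*, count more than once. As list members were chosen as interferon genes, their share is a description. The letters TTCNNNGAA, the core of the gamma-activated site, stood in none of the 15, in 10 of the 63 (15.9%), and in 8.30% of all promoters. *Oasl2*, *Xaf1*, *Irf9*, *Lgals3bp* and *Asns* held neither in this window, and *Fn1*, *Rtp4* and *Usp18* had no entry. A match is a run of letters and not a measured binding site. Of the called genes with a match, the 4 with the largest interactions are shown because they hold these letters. They are printed 5′ to 3′, with the matching letters in capitals, read on either strand. They lie at chr3:151749861-151750160, minus strand for *Ifi44*, chr19:34583279-34583578, plus strand for *Ifit3*, chr7:104507800-104508099, minus strand for *Trim30d*, and chr6:3399522-3399821, minus strand for *Samd9l*. *Ifit3* holds 3 matches and each of the others 1.
Ifi44: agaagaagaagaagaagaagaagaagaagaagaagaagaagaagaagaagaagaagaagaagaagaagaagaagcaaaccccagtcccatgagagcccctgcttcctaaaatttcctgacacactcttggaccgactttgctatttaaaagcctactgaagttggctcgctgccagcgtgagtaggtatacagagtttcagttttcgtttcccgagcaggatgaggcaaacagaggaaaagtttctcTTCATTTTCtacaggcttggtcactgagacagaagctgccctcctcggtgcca
Ifit3: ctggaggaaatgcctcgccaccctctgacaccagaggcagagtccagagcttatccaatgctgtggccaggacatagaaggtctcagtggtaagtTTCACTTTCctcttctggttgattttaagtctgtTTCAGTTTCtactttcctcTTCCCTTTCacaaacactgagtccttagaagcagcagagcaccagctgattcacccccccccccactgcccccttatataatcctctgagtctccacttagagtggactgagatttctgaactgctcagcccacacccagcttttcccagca
Trim30d: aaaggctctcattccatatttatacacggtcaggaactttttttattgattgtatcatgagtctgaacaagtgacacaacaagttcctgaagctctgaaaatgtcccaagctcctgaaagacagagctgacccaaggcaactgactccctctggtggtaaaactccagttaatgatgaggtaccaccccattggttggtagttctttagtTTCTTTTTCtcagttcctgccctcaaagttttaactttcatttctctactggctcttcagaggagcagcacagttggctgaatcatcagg
Samd9l: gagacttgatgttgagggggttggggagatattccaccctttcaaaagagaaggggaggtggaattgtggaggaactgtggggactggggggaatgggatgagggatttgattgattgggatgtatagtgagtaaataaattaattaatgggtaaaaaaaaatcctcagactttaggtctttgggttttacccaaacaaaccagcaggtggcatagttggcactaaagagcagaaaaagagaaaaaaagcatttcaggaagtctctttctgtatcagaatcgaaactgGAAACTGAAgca

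Outside the interferon response, the called gene with a positive interaction was *Asns* (chr6:7675169-7693254), which encodes asparagine synthetase and is a classic target of the transcription factor ATF4 when amino acids run short or the endoplasmic reticulum is stressed. It gave 178, 164 and 169 in WT astrocytes, 429.7, 361 and 387 in *SOD1* G93A astrocytes, 1086, 1025 and 1042 in WT microglia, and 1022, 991 and 901 in *SOD1* G93A microglia. All *SOD1* G93A astrocytes were more than 2-fold above all WT astrocytes, whereas *SOD1* G93A microglia were slightly below WT microglia. The difference in astrocytes was 1.20 (SE 0.09, limma adjusted *p* = 3.97e-06), in microglia -0.12 (limma adjusted *p* = 0.529), and the interaction 1.32 (SE 0.12, limma adjusted *p* = 8.05e-05). Without *SOD1* G93A LPS microglia replicate 3 the interaction was 1.26 (limma adjusted *p* = 6.16e-05, with adjusted *p*-values from 4.15e-15 to 0.0015 over all alternatives). In quiescent astrocytes, given without a test, *Asns* was 187, 198 and 267 in WT and 222, 174 and 182 in *SOD1* G93A, with overlap.

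*Asns* was on the list of chaperones and genes of the unfolded protein response, of which 22 of 23 were tested and 3 passed an adjusted *p*-value of 0.05, all positive. The list's median interaction was 0.04, close to that of all genes. Of the 22, 20 reached a mean of 10 in every group, with 2 that passed and a median of -0.02. The others were *Trib3* and *Chac1*, singled out after their values were seen and known as targets of ATF4 and CHOP. *Trib3*, a pseudokinase that binds ATF4, gave 5.81, 3.69 and 4.44 in WT astrocytes, 24.3, 12.1 and 22.4 in *SOD1* G93A astrocytes, 478, 483 and 487 in WT microglia, and 438, 483 and 289 in *SOD1* G93A microglia. It was low in astrocytes and above WT in every *SOD1* G93A astrocyte library, and the microglia groups overlapped. *Trib3* reached a mean of 10 in the astrocyte table through the *SOD1* G93A group only, so that it could be tested only because it was high there, and its interaction of 2.12 (SE 0.35, limma adjusted *p* = 0.00803) is given as a description. *Chac1*, which degrades glutathione, gave 13.3, 14.2 and 16.3 in WT astrocytes, 34.7, 28.6 and 55 in *SOD1* G93A astrocytes, 101, 91.5 and 100.3 in WT microglia, and 94.3, 92.2 and 72.2 in *SOD1* G93A microglia. Its astrocyte groups did not overlap and its microglia groups did. The interaction was 1.51 (SE 0.31, limma adjusted *p* = 0.0311), and without *SOD1* G93A LPS microglia replicate 3 it no longer passed, with 1.39 (limma adjusted *p* = 0.0524, with adjusted *p*-values from 0.00185 to 0.103 over all alternatives). *Atf4* itself gave 1292, 1254 and 1174 in WT astrocytes, 1512, 1439 and 1376 in *SOD1* G93A astrocytes, 7034, 6261 and 5812 in WT microglia, and 5210.4, 5322 and 3894 in *SOD1* G93A microglia, with an interaction of 0.63 (SE 0.16, limma adjusted *p* = 0.0946), and *Ddit3*, which encodes CHOP, had 0.91 (SE 0.29, limma adjusted *p* = 0.218). Neither passed.

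Further genes that are not on a common list were singled out after their values were seen, and were not tested as a set. *Slc7a5*, the light chain of a transporter of large neutral amino acids, gave 508, 516 and 537 in WT astrocytes, 997, 913 and 1175 in *SOD1* G93A astrocytes, 416, 432 and 444 in WT microglia, and 427, 451 and 453 in *SOD1* G93A microglia. *SOD1* G93A astrocytes were nearly 2-fold above WT and the microglia of both genotypes overlapped, with an interaction of 0.93 (SE 0.13, limma adjusted *p* = 0.00227). *Mthfd2*, a mitochondrial enzyme of folate metabolism, gave 96.4, 99.7 and 102 in WT astrocytes, 169, 154 and 163 in *SOD1* G93A astrocytes, 811, 846 and 818 in WT microglia, and 868, 852 and 846 in *SOD1* G93A microglia, with an interaction of 0.65 (SE 0.11, limma adjusted *p* = 0.00802). *Pck2*, the mitochondrial phosphoenolpyruvate carboxykinase, gave 118, 114 and 103 in WT astrocytes, 252, 205 and 255 in *SOD1* G93A astrocytes, 291, 248 and 249 in WT microglia, and 322, 319 and 269.7 in *SOD1* G93A microglia, with an interaction of 0.86 (SE 0.17, limma adjusted *p* = 0.0241). In *Slc7a5*, *Mthfd2* and *Pck2* the astrocyte groups did not overlap. *Eif4ebp1*, a repressor of translation, had an interaction of 0.71 (SE 0.13, limma adjusted *p* = 0.0199). *Psat1* and *Shmt2*, enzymes of serine and glycine metabolism, were higher in *SOD1* G93A astrocytes (0.67 and 0.65, limma adjusted *p* = 0.00450 and 0.00621), but their interactions were 0.47 (SE 0.15, limma adjusted *p* = 0.219) and 0.51 (SE 0.15, limma adjusted *p* = 0.173) and did not pass. *Aldh1l2*, named again below, had estimates of 1.16 in astrocytes and 0.81 in microglia. Its interaction of 0.36 (SE 0.29, limma adjusted *p* = 0.639) did not pass. *Slc38a6*, an amino acid transporter described below, had a negative interaction. In quiescent astrocytes, given without a test, *Slc7a5* was 287, 318 and 347 CPM in WT and 437, 393 and 369 in *SOD1* G93A. *Pck2* was 24.8, 27.8 and 30.8 in WT and 38.2, 35.6 and 38.6 in *SOD1* G93A there. The genotypes overlapped in those libraries for *Mthfd2*, *Eif4ebp1*, *Psat1* and *Shmt2*.

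The promoter of *Asns* (chr6:7693160-7693459, minus strand) did not hold the interferon core, nor did those of *Oasl2*, *Xaf1*, *Irf9* and *Lgals3bp* among the called interferon genes. The capitals mark TGATGNAA, the core of the amino acid response element, a motif chosen after the genes were seen. These letters stood in 3.97% of all promoters and 2.14% of the promoters of genes tested. They stood in 3 of the 15 promoters of called genes, which were those of *Asns*, *Trim34a* and *Lgals3bp*. For the positive interferon genes it was 5 of 63 promoters of 49 genes (7.94%). For the positive genes outside the interferon lists with a mean of at least 10 in every group it was 3 of 17 promoters of 14 genes (17.6%), namely those of *Asns*, *Chac1* and *Pck2*. As the motif was chosen after these genes were seen, this share is a description.
Asns: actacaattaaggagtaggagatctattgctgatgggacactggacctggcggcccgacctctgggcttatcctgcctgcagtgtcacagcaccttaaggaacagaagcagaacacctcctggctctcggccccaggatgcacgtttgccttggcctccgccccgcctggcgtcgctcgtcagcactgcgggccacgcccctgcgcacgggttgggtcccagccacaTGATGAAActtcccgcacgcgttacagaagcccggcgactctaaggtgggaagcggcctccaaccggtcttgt

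**Figure D3:**
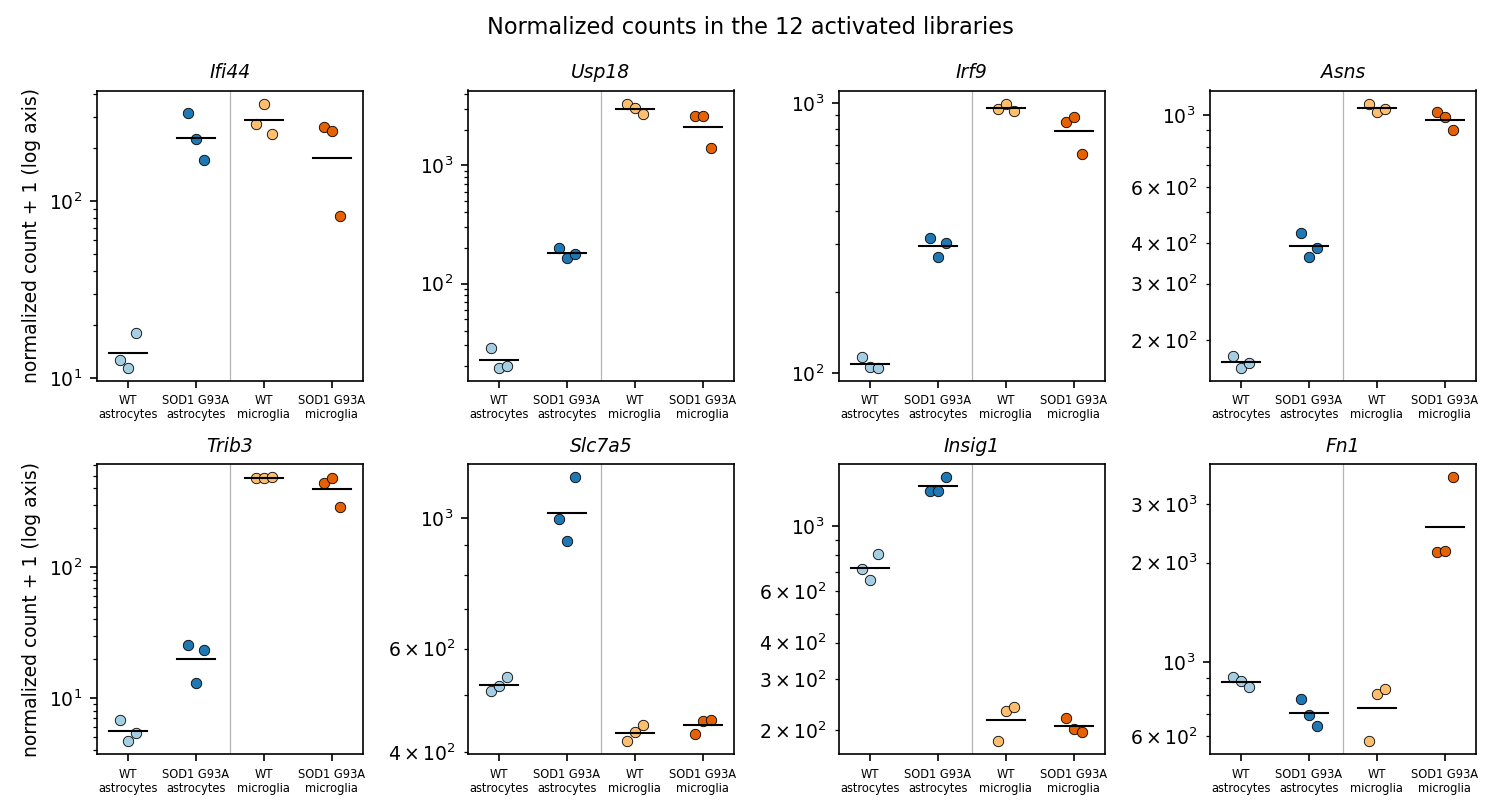
Normalized counts plus 1 (log axes that differ between panels) of 8 genes in the 12 activated libraries, where points are libraries, lines are means on the log scale, and the grey line parts the separately normalized tables of astrocytes and microglia. In every panel but that of *Fn1* the *SOD1* G93A astrocytes lie above the WT astrocytes, and for *Fn1* the *SOD1* G93A microglia lie above the WT microglia.

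Among genes of lipid metabolism, 1 of 21 genes of sterol and fatty acid synthesis passed an adjusted *p*-value of 0.05. This was *Insig1*, which retains the sterol sensor SCAP in the endoplasmic reticulum, with 714, 656 and 801 in WT astrocytes, 1322, 1321 and 1472 in *SOD1* G93A astrocytes, 183, 232 and 239.6 in WT microglia, and 220, 201 and 196 in *SOD1* G93A microglia. *SOD1* G93A astrocytes stood clear above WT, microglia overlapped, and the interaction was 1.00 (SE 0.16, limma adjusted *p* = 0.00563). The list's median was 0.30, with a median of 0.41 in astrocytes and 0.03 in microglia. Singled out after their values were seen, *Acsbg1*, an acyl-CoA synthetase, *Fabp5*, a fatty acid carrier, and *Scarb1*, a lipoprotein receptor, had interactions of 0.71, 0.74 and 0.59 (limma adjusted *p* = 0.0353, 0.0274 and 0.0270), whereas that of *Cpt1a*, described below, was negative. In quiescent astrocytes, given without a test, *Insig1* was 257, 259 and 192 CPM in WT and 325, 321 and 368 in *SOD1* G93A. *Acsbg1* and *Scarb1* were also higher there in every *SOD1* G93A library than in every WT library, and *Fabp5* overlapped.

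The remaining positive genes outside the interferon lists, also chosen after their values were seen, ranged from 0.49 (*Hspa9*) to 1.94 (*Trim12a*) and included *Arl4c*, *Lgals8*, *Nudt4* and *Pmp22*. *Trim12a* gave 29.9, 25.9 and 31 in WT astrocytes, 103, 68.3 and 69.2 in *SOD1* G93A astrocytes, 295, 259 and 234 in WT microglia, and 206, 219 and 131 in *SOD1* G93A microglia. All *SOD1* G93A libraries were above WT in astrocytes and below WT in microglia, with an interaction of 1.94 (SE 0.29, limma adjusted *p* = 0.00350), and *Trim12c* had 1.34 (SE 0.19, limma adjusted *p* = 0.00325). *Nfil3*, a transcription factor, gave 101, 106 and 99.8 in WT astrocytes, 127, 129.9 and 122 in *SOD1* G93A astrocytes, 778, 807 and 807 in WT microglia, and 570, 615 and 383 in *SOD1* G93A microglia, with an interaction of 0.94 (SE 0.20, limma adjusted *p* = 0.0392). The estimate was larger in microglia (-0.64, limma adjusted *p* = 0.119) than in astrocytes (0.31), and neither passed on its own. For the kinase gene *Pim3* the interaction was 0.90 (SE 0.19, limma adjusted *p* = 0.0411). *Gm6548* and *Gm9855*, also positive, may share reads with related genes and are uncertain.

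In the negative direction the called gene was *Fn1* (chr1:71585520-71653200), which encodes fibronectin, a glycoprotein of the extracellular matrix. It gave 902, 880.2 and 842 in WT astrocytes, 777, 691 and 643 in *SOD1* G93A astrocytes, 579, 799.9 and 829.6 in WT microglia, and 2146, 2169 and 3614 in *SOD1* G93A microglia. All *SOD1* G93A microglia were more than 2-fold above all WT microglia, with replicate 3 the highest, and *SOD1* G93A astrocytes were slightly below WT astrocytes. The difference in microglia was 1.82 (SE 0.18, limma adjusted *p* = 0.00131), in astrocytes -0.32 (limma adjusted *p* = 0.662), and the interaction -2.13 (SE 0.25, limma adjusted *p* = 0.000681). Without *SOD1* G93A LPS microglia replicate 3 the interaction was -1.88 (limma adjusted *p* = 6.16e-05, with adjusted *p*-values from 7.89e-13 to 0.00597 over all alternatives). The groups were also apart in astrocytes, although that difference did not pass. In CPM, *Fn1* was 419, 390.1 and 436 in WT quiescent microglia, 97.8, 129 and 136 in WT LPS microglia and 346, 354 and 607 in *SOD1* G93A LPS microglia. On this scale 2 of the *SOD1* G93A LPS libraries were a little below the quiescent WT libraries, the other was above, and WT LPS microglia were lowest. Of the 28 genes of extracellular matrix and contraction 21 were tested, and *Fn1* was the one that passed an adjusted *p*-value of 0.05. The list's median was -0.22, and -0.05 over the 19 that reached a mean of 10 in every group. As given above, the pericyte and fibroblast markers other than *Cspg4* overlapped between the genotypes in LPS microglia and were lowest in *SOD1* G93A replicate 3.

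The other 16 negative genes passed an adjusted *p*-value of 0.05 and not the limits for a call, and were singled out after their values were seen. *Cyfip2*, a part of the complex that drives actin branching, gave 185, 219.7 and 213 in WT astrocytes, 152, 173 and 147 in *SOD1* G93A astrocytes, 430.2, 551 and 557 in WT microglia, and 852, 857 and 942 in *SOD1* G93A microglia. *SOD1* G93A microglia were above and *SOD1* G93A astrocytes below their WT groups, with an interaction of -1.18 (SE 0.16, limma adjusted *p* = 0.00233). *Enc1*, an actin-binding protein, gave 338, 319 and 282 in WT astrocytes, 228, 207 and 236 in *SOD1* G93A astrocytes, 132, 143 and 142 in WT microglia, and 195, 234 and 215 in *SOD1* G93A microglia, with an interaction of -1.10 (SE 0.15, limma adjusted *p* = 0.00211), and *Slc38a6* gave 28.2, 28.3 and 28.1 in WT astrocytes, 23.1, 24.2 and 18.3 in *SOD1* G93A astrocytes, 99.2, 127 and 119.8 in WT microglia, and 234, 197 and 231 in *SOD1* G93A microglia, with -1.30 (SE 0.22, limma adjusted *p* = 0.00780). In these genes the genotypes did not overlap in either cell type, in opposite directions, beside 22.97% and 18.02% of all genes tested that did not overlap in astrocytes and in microglia. *Kntc1*, a protein of the kinetochore, gave 5.10, 4.88 and 7.81 in WT and 16.8, 14.3 and 25.1 in *SOD1* G93A microglia and reached a mean of 10 there through the *SOD1* G93A group only, so that its interaction of -1.92 (SE 0.37, limma adjusted *p* = 0.0235) is given as a description. In *Cpt1a*, which carries fatty acids into mitochondria, and *Pfkl*, the liver form of phosphofructokinase, the difference passed in astrocytes and not in microglia. *Cpt1a* gave 469, 407 and 444 in WT astrocytes, 246, 261 and 250.4 in *SOD1* G93A astrocytes, 667, 902 and 845 in WT microglia, and 893, 984 and 738 in *SOD1* G93A microglia, with -0.80 in astrocytes (limma adjusted *p* = 0.00360) and an interaction of -0.91 (SE 0.17, limma adjusted *p* = 0.0222). *Pfkl* gave 303, 282 and 273 in WT astrocytes, 166, 193 and 171 in *SOD1* G93A astrocytes, 481, 376 and 422 in WT microglia, and 432, 452 and 547 in *SOD1* G93A microglia, with an interaction of -0.85 (SE 0.16, limma adjusted *p* = 0.0231), and was the 1 of 19 genes of glycolysis and hypoxia tested that passed. *SOD1* G93A astrocytes were lowest within their cell type in both genes, and the microglia groups overlapped. *Inf2*, *Ecm1*, *Nrxn2*, *Gpc1*, *Anxa4*, *Bmp1*, *Slc25a10*, *Plxnd1*, *Atp8a1* and *Tubb5* had interactions from -0.93 to -0.63. Without *SOD1* G93A LPS microglia replicate 3, *Gpc1* and *Atp8a1* no longer passed (limma adjusted *p* = 0.0576 and 0.0510).

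Of the 33 gene lists, 22 held no gene at an adjusted *p*-value under 0.05 for the interaction, 20 of them with members tested. These included complement (10 tested, median -0.25), cytokines and their receptors (26, -0.02), NF-kB subunits and inhibitors (16, 0.18), oxidative stress response (21, -0.29), respiratory chain (19, 0.29), lysosome and phagocytosis (20, -0.01), cell cycle (23, -0.40) and immediate early genes (15, 0.33). Without *SOD1* G93A LPS microglia replicate 3 these medians were, in the same order, -0.08, -0.10, 0.03, -0.22, 0.29, -0.02, -0.22 and 0.23. In that fit 1 gene on the cytokine list passed with a positive interaction. The medians of MHC class II (2 tested), metallothioneins (3), BMP, TGF-beta and ID genes (8) and cytosolic ribosomal proteins (19) were -0.47, 0.12, -0.08 and 0.20. Without *SOD1* G93A LPS microglia replicate 3 they were -0.46, -0.05, -0.09 and 0.23, so that the metallothionein median changed sign. Of the panel of 35 reactive astrocyte genes 28 were tested, and the 4 that passed, *Cxcl10* among them, were also interferon genes. *C3*, a complement gene induced in reactive astrocytes, gave 1914, 1525 and 1729 in WT astrocytes, 1456, 1464 and 1368 in *SOD1* G93A astrocytes, 1154, 1429 and 1359.6 in WT microglia, and 1367, 1333 and 1559.5 in *SOD1* G93A microglia, with an interaction of -0.38 (SE 0.15, limma adjusted *p* = 0.304). *Lcn2*, a secreted carrier of siderophores, had 0.08 (SE 0.14, limma adjusted *p* = 0.840), *Gfap*, the astrocyte intermediate filament, -0.12 (SE 0.36, limma adjusted *p* = 0.916), and *Il6* -0.24 (SE 0.20, limma adjusted *p* = 0.664). The *Gfap* interaction was -0.47 without *SOD1* G93A LPS microglia replicate 3 (limma adjusted *p* = 0.520). For *Tnf* and *Il1a*, cytokine genes induced by LPS, the interactions were 0.14 (SE 0.26, limma adjusted *p* = 0.850) and 0.29 (SE 0.28, limma adjusted *p* = 0.702). None of these passed. A *p*-value that misses the threshold does not show that the genotype difference was equal in both cell types.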

How the data were processed

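The authors aligned reads to mm10 with STAR, counted them with RSEM and deposited, per comparison, the normalized counts of each library, a signal equal to the read count divided by a DESeq2 size factor. Other columns the authors deposited (mean, log2 fold change, SE, score, *p*-value) were not used, nor were 12 further columns of libraries. Dividing by the smallest step gave whole reads (within 0.01) for 100% of values. In limma 3.58.1 (R 4.3.3, intensity trend), log2(normalized count + 1) of the 12 libraries was fitted with 4 group means, and contrasts gave the interaction, each cell type's difference and their average, with Benjamini-Hochberg adjustment over 10069 genes. A scale factor per table cancels in the interaction, except that the added 1 leaves a remainder at low counts. DESeq2 1.42.0 and edgeR 4.0.16 were run on recovered reads and called 56 and 17 genes. Labels do not say whether replicates were separate cultures, so *p*-values measure the spread between these samples. The members and gene lists were chosen with earlier results of these data known. Named genes were the 10 called genes with the largest interactions in each direction (mean of at least 20 in both tables), up to 8 in each direction outside the interferon lists, up to 4 called members per list or else the member with the smallest *p*-value, genes named in the study, sex genes, and genes called for the average or in both cell types. Other genes named were chosen after their values were seen. Gene positions are from GENCODE M21. The fit was tested on simulated data, and the outcome is not given here. Some genes are not reported here.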

Additional observations from a re-analysis of the deposited data

Results flagged for a closer look

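The genotype difference itself differed between activated astrocytes and LPS microglia, by the interaction test, for 17 genes, among them those that follow. The interaction (log2, astrocytes minus microglia) was 4.76 for *Ifi44*, 3.53 for *Ifit3*, 3.52 for *Usp18*, 3.36 for *Xaf1*, 3.34 for *Oasl2*, 3.21 for *Trim30d*, 3.10 for *Rtp4* and 2.58 for *Samd9l*. It was 2.43 for *Trim34a*, 2.39 for *Trim30a*, 2.04 for *Trim25*, 1.95 for *Irgm1*, 1.73 for *Irf9*, 1.58 for *Lgals3bp* and 1.32 for *Asns*. *Fn1* had the opposite sign, with -2.13. All 17 were also called without *SOD1* G93A LPS microglia replicate 3, but over the 12 fits with 1 library left out *Trim25* was called in 8, *Ifi44*, *Irgm1*, *Samd9l* and *Trim34a* in 4, *Fn1*, *Ifit3* and *Lgals3bp* in 3, and the others in all. Depth and sex makeup moved with genotype in astrocytes, and the part of sex makeup in these values was not tested.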

How the results depend on the processing

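Directions of the 17 called genes were the same in all 25 alternative fits. Of the 17, all were called with either other pseudocount, no filter, at least 10 in every library, TMM scaling, quantile normalization, DESeq2 or thinned reads, 16 with edgeR and 15 with cell type weights. The interaction count was 7 with limma without a trend, 56 with DESeq2 (48 on the interferon lists), 43 without both microglia libraries that stood apart, 73 at an adjusted *p*-value under 0.05 and more than 2-fold, and 102 at any size. With a single library left out it ranged from 9 to 31. The astrocyte count was 18 without a trend, 58 with cell type weights, 60 with DESeq2, 63 without both libraries, 64 and 116 at the looser limits, and 16 to 58 with a library left out. The microglia count was 1 (*Fn1*) with a pseudocount of 5, no filter, at least 10 in every library, quantile normalization, edgeR, thinned reads, without both libraries or at the looser limits with more than 2-fold, 2 with DESeq2, 4 at any size, and 0 to 1 with a library left out. The average count was 1 with either other pseudocount, TMM scaling or thinned reads, 0 without a trend or with cell type weights, 10 with DESeq2, 13 without both libraries, 10 and 50 at the looser limits, and 0 to 12 with a library left out. The median interaction of the interferon-stimulated genes was 1.03 without both libraries and 1.07 to 1.45 with a single library left out. Where fewer libraries were fitted there were fewer residual degrees of freedom. All groups shared a single estimate of the spread. Leaving out a microglia library therefore also changed the *p*-values of the astrocyte differences, but not their estimates. The causes of the changed counts were otherwise not tested. Replicate numbers did not pair the libraries, since the correlations of same-numbered libraries were 0.00923, -0.140 and 0.0437 in astrocytes and -0.0678, -0.0701 and -0.0370 in microglia. With the replicate block the interaction, astrocyte and average counts were 4, 18 and 0, and the microglia count was 0. The shallowest library held 2135439 reads, which limits genes of low counts such as *Trib3* and *Kntc1*.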

Other observations

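*Cspg4*, a proteoglycan gene found in oligodendrocyte precursors and pericytes, was 363, 416 and 417 normalized counts in WT and 692, 658 and 1263 in *SOD1* G93A LPS microglia, and 1202, 1238 and 1247 CPM in WT quiescent microglia against 61.3, 66.9 and 68.5 and 112, 107 and 212 in WT and *SOD1* G93A LPS microglia. It was singled out after its values were seen.

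*Mmp3*, a secreted matrix protease, was at 135, 116 and 120.5 in WT astrocytes, 62.4, 50.6 and 38.7 in *SOD1* G93A astrocytes, 33.5, 23.2 and 15.6 in WT microglia, and 15.7, 7.95 and 8.84 in *SOD1* G93A microglia. All *SOD1* G93A astrocytes were below WT astrocytes, and the microglia groups overlapped. Its average difference was -1.19 (SE 0.21, limma adjusted *p* = 0.0231) and its interaction -0.22 (SE 0.42, limma adjusted *p* = 0.859). *Ifi27* and *Aldh1l2* had every *SOD1* G93A library above every WT library within both cell types, with average differences of 0.98 and 0.98 (limma adjusted *p* = 0.00547 and 0.00647), and no interaction passed for either. These genes were chosen after their values were seen.

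In quiescent astrocytes *Ddx3y* was 138, 164 and 147 in WT and 66.1, 70.8 and 78.5 in *SOD1* G93A, and *Xist* 4349.6, 3269.5 and 1345 and 5818, 12109.5 and 16907. In WT quiescent microglia *Ddx3y* was 23, 22 and 24.5 CPM, against 0.739, 0.392 and 1.07 in WT LPS microglia.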
